A study of Mus musculus with 79 samples.

Results

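The T cell receptor complex and its coreceptors were followed through 10 genes: Cd3e, Cd3d, Cd3g, Cd247, Cd8a, Cd8b1, Cd4, Cd5, Cd6 and Thy1. Each was chosen by its name, and all 10 of 10 had 1 row on the array, out of 19505 genes measured. The series comprised 79 mammary tumors, each from its own female C57BL/6J mouse, measured on mouse Clariom S microarrays. The tumors fell into 12 sets, 3 cell lines by 4 groups. Mice received a 60% high-fat diet (diet-induced obese, DIO), the same diet with 140 ppm sulindac (DIOSul), a low-fat control diet with 140 ppm sulindac (ConSul), or the control diet alone (Con). Sulindac is a non-steroidal anti-inflammatory drug that inhibits both cyclooxygenases. Tumor cells were injected into mammary fat pad 4. E0771 is a triple-negative mammary cancer line carrying a green fluorescent protein and luciferase reporter (8 DIOSul, 8 DIO, 6 ConSul and 6 Con tumors). The metM-Wnt-lung line (7 DIOSul, 7 DIO, 6 ConSul and 6 Con) and the metM-Wnt-liver line (7 DIOSul, 7 DIO, 4 ConSul and 7 Con) are subclones of M-Wnt cells, taken from a lung and a liver metastasis and derived from MMTV-Wnt1 tumors, in which a mammary promoter drives Wnt1. C57BL/6J mice keep their own T cells. Mice bearing tumors of 1 line were killed together, so line and time of collection cannot be told apart.

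The T cell receptor itself has almost no intracellular tail. Its signal is passed on by the CD3 chains, encoded by Cd3e, Cd3d and Cd3g, and by the zeta chain, encoded by Cd247, whose tyrosine motifs are phosphorylated when the receptor meets a peptide on an MHC molecule. CD8 (Cd8a and Cd8b1) binds MHC class I and marks cytotoxic T cells, while CD4 binds MHC class II and marks helper and regulatory T cells. CD5 and CD6 are related surface receptors that dampen the signal, and Thy1 is a lipid-anchored surface protein found on mouse T cells but also on fibroblasts. Some markers are shared: natural killer cells use the zeta chain, and some mouse dendritic cells carry CD4 or the CD8 alpha chain. In many mouse tumors, cytotoxic T cells that carry this complex are among the cells that limit growth.

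Values are log2 signals as normalized by the authors, and a difference of 1 is a doubling. A probe's level cannot be set against that of another probe, so only changes are compared between genes. Whole tumors were measured, so fewer T cells and less of the RNA per T cell cannot be told apart. Array medians lay between 6.29 and 6.81. In 2 whole sets, the Con set of metM-Wnt-lung and the ConSul set of metM-Wnt-liver, the 10 arrays had a wider spread of values than the other 41 metM-Wnt arrays, with 99th percentiles of 16.28 to 16.48 against 16.10 to 16.34. No array could be left out to test this, since it held for whole sets, and the comparisons with these sets are given with that limit. In 24 of 79 arrays, host muscle or skin genes stood high: 3 DIOSul, 0 DIO, 3 ConSul and 1 Con array of E0771, 5, 1, 2 and 3 of metM-Wnt-lung, and 3, 1, 1 and 1 of metM-Wnt-liver. The 6 epithelial marker genes averaged 4.80 to 6.86 at the median of each set, near or below the array medians, while the 9 macrophage markers averaged 12.2 to 15.1.

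The promoters of the 3 CD3 genes and of Cd8a are shown because these genes moved together in the results below. Cd3g, Cd3d and Cd3e lie side by side on chromosome 9, with the starts of Cd3g and Cd3d 1355 bases apart and those of Cd3d and Cd3e 27825 bases apart. Cd3g and Cd3d are transcribed away from each other. In the GRCm38 annotation, Cd3g spans chr9:44969572-44980431, Cd3d chr9:44981769-44987052 and Cd3e chr9:44998735-45009663. Thy1 lies on the same chromosome at chr9:44043384-44048579. Cd8b1 (chr6:71322788-71337492) and Cd8a (chr6:71373427-71379171) lie near each other on chromosome 6, which also holds Cd4 (chr6:124864693-124888247). Cd5 (chr19:10718107-10739026) and Cd6 (chr19:10789339-10830062), whose proteins are related, are close on chromosome 19, and Cd247 spans chr1:165779952-165871153. RefSeq windows (GRCm38.p6) of 250 bases before to 50 after the transcript start were found for 6 of the 10 genes, and those of 4 are printed 5′ to 3′ on the gene's strand. The windows are Cd3e at chr9:45009562-45009861 on the minus strand, Cd3d at chr9:44981536-44981835 on the plus strand, Cd3g at chr9:44980382-44980681 on the minus strand and Cd8a at chr6:71373177-71373476 on the plus strand. Capitals mark matches, on either strand, to 3 letter patterns. The first is AGGAAG, which factors of the ETS family bind. The second is AGATAA, bound by factors of the family named after GATA. The last is CANCTG, the E box:
Cd3e: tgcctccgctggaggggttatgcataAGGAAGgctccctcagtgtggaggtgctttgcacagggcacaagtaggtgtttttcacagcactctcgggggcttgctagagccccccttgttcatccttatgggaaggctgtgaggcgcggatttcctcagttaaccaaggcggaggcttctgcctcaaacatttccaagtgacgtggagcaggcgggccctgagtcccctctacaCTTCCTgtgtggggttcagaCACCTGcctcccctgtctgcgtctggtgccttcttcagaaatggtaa
Cd3d: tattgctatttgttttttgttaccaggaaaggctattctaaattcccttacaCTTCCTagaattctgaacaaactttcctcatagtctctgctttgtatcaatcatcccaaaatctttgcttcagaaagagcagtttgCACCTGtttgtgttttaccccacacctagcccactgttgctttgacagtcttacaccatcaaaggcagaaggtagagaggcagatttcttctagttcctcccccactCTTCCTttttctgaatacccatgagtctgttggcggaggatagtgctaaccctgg
Cd3g: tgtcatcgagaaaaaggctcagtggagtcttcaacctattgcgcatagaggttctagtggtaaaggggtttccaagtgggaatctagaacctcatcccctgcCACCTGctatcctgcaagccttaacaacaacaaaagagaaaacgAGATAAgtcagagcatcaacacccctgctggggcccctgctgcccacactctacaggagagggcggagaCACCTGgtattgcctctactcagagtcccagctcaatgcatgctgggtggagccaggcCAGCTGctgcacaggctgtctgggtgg
Cd8a: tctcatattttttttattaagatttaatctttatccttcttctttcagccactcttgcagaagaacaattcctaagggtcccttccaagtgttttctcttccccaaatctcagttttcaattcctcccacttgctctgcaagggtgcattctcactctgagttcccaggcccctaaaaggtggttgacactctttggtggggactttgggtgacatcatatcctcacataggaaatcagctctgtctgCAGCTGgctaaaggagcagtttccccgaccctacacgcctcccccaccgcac
Cd3e held AGGAAG at bases −224 and −17 and an E box at base 4, counted from the transcript start. Cd3d held AGGAAG at bases −198 and −5 and an E box at base −112. Cd3g held AGATAA at base −104 and E boxes at bases −148, −35 and 24. The Cd8a window held 1 match, an E box at base −2. Of the 6 windows, 4 held AGGAAG, 1 held AGATAA, 6 held CANCTG and 0 held TGTGGT (a RUNX motif). Among 32851 RefSeq promoter windows of the same length, 35.4% held AGGAAG, 11.2% AGATAA, 51.4% CANCTG and 16.8% TGTGGT. A letter match is a description and not a bound site.

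The set with the lowest mean was E0771 DIO for all 10 genes. Over the 79 tumors, Cd8a ranged between 4.22 and 12.86, Cd3e between 5.00 and 12.79, Thy1 between 7.21 and 14.56 and Cd5 between 4.2 and 8.0. Cd8a averaged 10.65 over the 4 metM-Wnt-lung sets and 10.90 over the 4 metM-Wnt-liver sets, against 6.84 over the 4 E0771 sets. These are differences of 3.81 (SE 0.321, adjusted p = 1.22e-17, limma) and 4.06 (SE 0.329, adjusted p = 2.14e-18). Cd3e averaged 10.40 and 10.73 in the metM-Wnt-lung and metM-Wnt-liver sets, against 8.01 in E0771. The CD3 and CD8 chains were thus higher in both metM-Wnt lines. For Cd4 the differences from E0771 were 0.66 (SE 0.215, adjusted p = 0.00601) and 0.63 (SE 0.220, adjusted p = 0.0104), and for Thy1 they were 0.52 (adjusted p = 0.0602) and 0.33 (adjusted p = 0.256). In all, 9 of 10 genes passed the test as higher in metM-Wnt-lung than in E0771, where 29.2% of all genes did, and 9 of 10 in metM-Wnt-liver, where 29.3% did. In each comparison the Cd4 call was lost under 2 of 7 other settings and the Cd5 call under 1 of 6. The lowest differences over these settings were 0.12 (metM-Wnt-lung) and 0.34 (metM-Wnt-liver) for Cd4, and 0.26 and 0.46 for Cd5. Between metM-Wnt-lung and metM-Wnt-liver, 0 of 10 passed, with differences of −0.39 to 0.20, against 17.3% of all genes called in either direction. It is not stated whether the lines were normalized together.

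**Figure D1:**
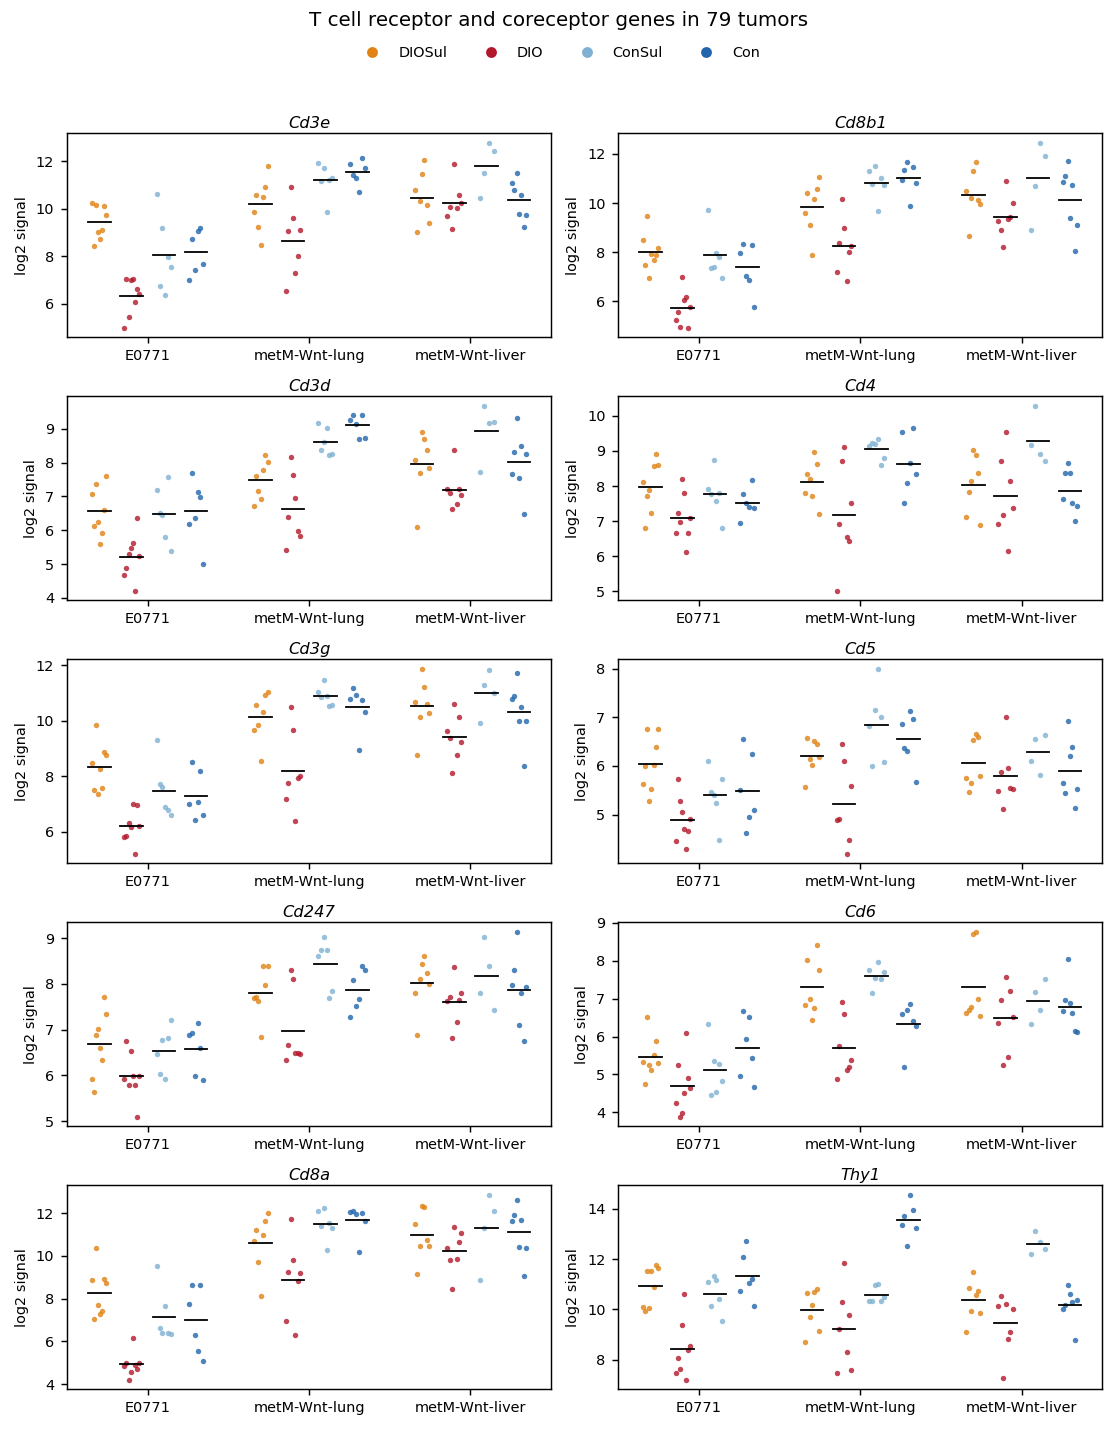
Log2 signal of the 10 genes (1 panel each) in every tumor, by cell line on the horizontal axis, with the groups in the order DIOSul, DIO, ConSul and Con and a bar at each set's mean. The E0771 DIO tumors lie lowest in every panel by their mean, and the Thy1 values of metM-Wnt-lung Con lie highest, between 12.52 and 14.56.

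The first question in each line was what the high-fat diet did to these genes. In E0771 tumors, the CD3 epsilon and delta chains, both CD8 chains and Thy1 fell in DIO relative to Con, by 2.52-fold (Cd3d) to 7.52-fold (Thy1). CD4, CD3 gamma, the zeta chain, CD5 and CD6 did not pass the test. Cd3e, the chain on which assembly of the complex depends, had a lowest, median and highest value of 5.00, 6.51 and 7.06 in the 8 DIO tumors, against 7.02, 8.20 and 9.20 in the 6 Con tumors. The groups met only at their edges, where 3 DIO tumors reached the lowest Con tumor. The difference was −1.85 (SE 0.509, adjusted p = 0.0334), a 3.60-fold lower signal in DIO.

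Cd8a, the chain shared by both forms of CD8, had values of 4.22, 4.88 and 6.17 in DIO, against 5.08, 7.04 and 8.64 in Con. Most DIO tumors lay below every Con tumor, and the Con tumors were widely spread (SD 1.56, against 0.56 in DIO). The difference was −2.07 (SE 0.571, adjusted p = 0.0340). Cd8b1, the beta chain that marks conventional cytotoxic T cells, gave −1.67 (SE 0.425, adjusted p = 0.0235) and Cd3d gave −1.33 (SE 0.390, adjusted p = 0.0432). Thy1 was 7.21, 8.22 and 10.62 in DIO, against 10.13, 11.13 and 12.72 in Con, with overlap by the highest DIO tumor. Its difference was −2.91 (SE 0.461, adjusted p = 0.00291).

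Cd4 was 6.11, 7.04 and 8.21 in DIO tumors, against 6.94, 7.45 and 8.18 in Con tumors. The groups overlapped over the whole Con range, and the difference was −0.44 (95% interval −1.1 to 0.22, adjusted p = 0.460). Cd3g gave −1.11 (adjusted p = 0.115), Cd247 −0.59 (adjusted p = 0.243), Cd5 −0.61 (adjusted p = 0.237) and Cd6 −1.01 (adjusted p = 0.0901). All 10 differences were negative and 5 of 10 passed the test as lower, where 2.75% of all genes did. The 10 genes had a median difference of −1.22, where the median over all genes was 0.0004. In 0 of 10 genes were the groups fully apart, against 0.954% of all genes. The count of 5 fell to 1 without Con replicate 2 or 5, to 2 without Con replicate 1 or DIO replicate 1, 3 or 8, and to 3 without Con replicate 4. With a score of fibroblast genes in the fit, 1 of 10 (Thy1) and 11 of all genes were called, against 1008 of all genes without it. The differences of Cd3e, Cd3d, Cd8a and Cd8b1 were then −1.95, −1.32, −1.78 and −1.42.

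Sulindac on the high-fat diet went with a higher signal in E0771. CD3 epsilon, gamma and delta, both CD8 chains, CD5 and Thy1 were higher in DIOSul than in DIO, from 2.23-fold (Cd5) to 10.2-fold (Cd8a). Cd8a was 7.03, 8.21 and 10.37 in the 8 DIOSul tumors, against 4.22, 4.88 and 6.17 in the 8 DIO tumors. These 8 DIO values lay below the median of every array. Every DIOSul tumor lay above every DIO tumor. The difference was 3.36 (SE 0.529, adjusted p = 0.000173).

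Cd3e was 8.42, 9.43 and 10.25 in DIOSul, against 5.00, 6.51 and 7.06 in DIO, again with no overlap. This was an 8.65-fold difference, 3.11 on the log2 scale (SE 0.471, adjusted p = 0.000122). Cd3g was 7.36, 8.36 and 9.86 in DIOSul, against 5.21, 6.20 and 6.98 in DIO, likewise with no overlap, and differed by 2.15 (SE 0.385, adjusted p = 0.000733). Groups were fully apart in 3 of 10 genes (Cd3e, Cd3g and Cd8a), against 1.06% of all genes.

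The other chains moved the same way with some overlap. Cd8b1 was 6.97, 7.91 and 9.48 in DIOSul, against 4.94, 5.67 and 7.0 in DIO, and only the outermost tumors met. It differed by 2.30 (SE 0.394, adjusted p = 0.000448), Thy1 by 2.53 (SE 0.427, adjusted p = 0.000381), Cd3d by 1.34 (SE 0.361, adjusted p = 0.0253) and Cd5 by 1.16 (SE 0.275, adjusted p = 0.0105). The zeta chain Cd247 (0.70, adjusted p = 0.147) and Cd6 (0.77, adjusted p = 0.188) did not pass. Cd4 was 6.8, 8.0 and 8.92 in DIOSul, against 6.11, 7.04 and 8.21 in DIO. These overlapped widely, and the difference of 0.89 (95% interval 0.28 to 1.5) had an adjusted p of 0.0860. Thus 7 of 10 genes passed as higher, where 3.02% of all genes did, and their median difference was 1.75 (all genes −0.0213). The 7 E0771 arrays high in muscle or skin genes held 3 of 8 DIOSul and 0 of 8 DIO tumors. With them left out, 5 of 10 genes passed.

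**Figure D2:**
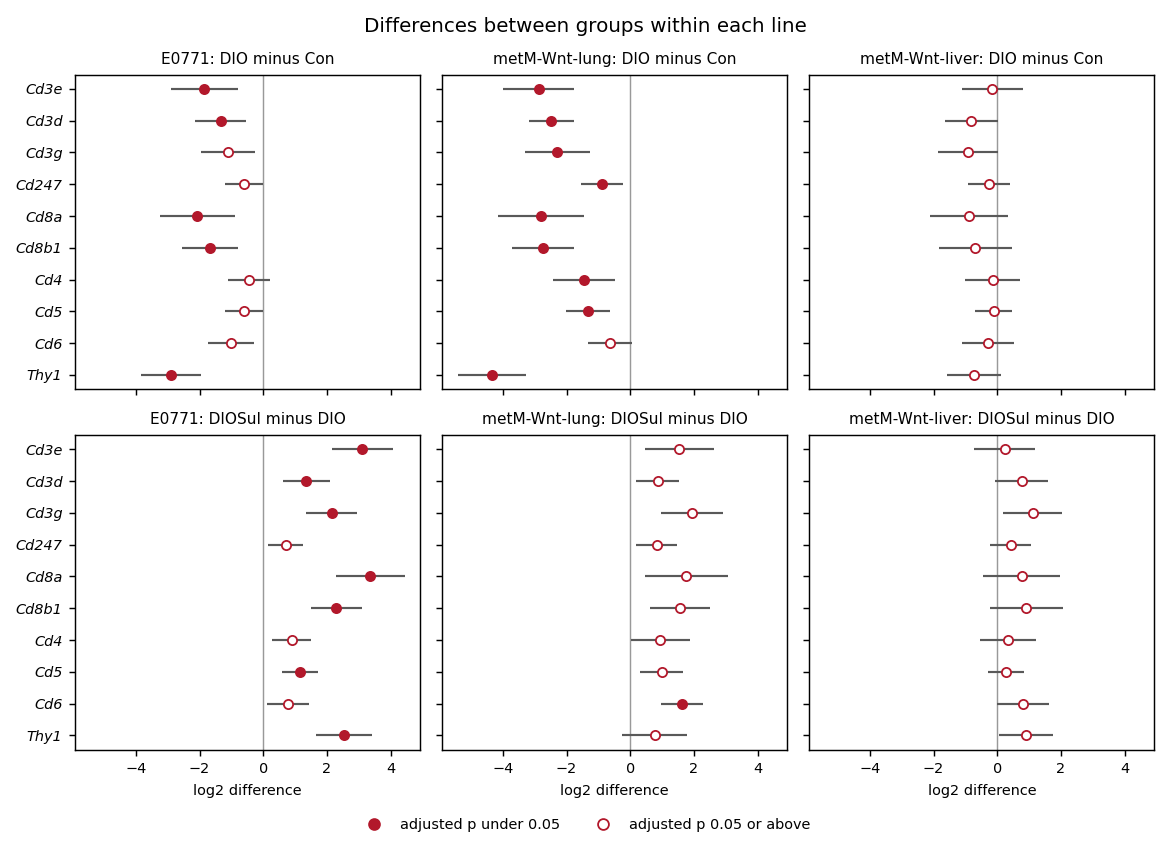
Difference in log2 signal for each gene (vertical axis) in the 3 lines (panels), DIO minus Con in the top row and DIOSul minus DIO in the bottom row, with 95% intervals from limma and filled points where the adjusted p was under 0.05. In E0771, 5 genes fell in DIO and 7 were higher in DIOSul than in DIO; in metM-Wnt-lung 9 fell and 1 was higher, and in metM-Wnt-liver 0 passed in either comparison.

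On the control diet, sulindac went with no called change in E0771. Cd8a was 6.36, 6.52 and 9.52 in ConSul, against 5.08, 7.04 and 8.64 in Con, and the groups overlapped between 6.36 and 8.64. Cd3e was 6.38, 7.76 and 10.61 in ConSul, against 7.02, 8.20 and 9.20 in Con, and all Con tumors lay within the ConSul range. Across the 10 genes the differences ran from −0.70 to 0.48 and the smallest adjusted p was 0.734 (Cd6), so 0 of 10 passed by limma, as did 0% of all genes, of which 1636 had an unadjusted p under 0.05. DIOSul and ConSul tumors, both given sulindac, differed by 0.08 to 1.37 with 0 of 10 called (smallest adjusted p = 0.231, Cd3e), against 0.0974% of all genes. The sulindac effect in DIO minus that in Con was tested itself. It was 3.22 for Cd3e (SE 0.719, adjusted p = 0.0371) and 3.23 for Thy1 (SE 0.652, adjusted p = 0.0266), and these 2 of 10 passed as higher, where 0.241% of all genes did. For Cd8a it was 3.19 (adjusted p = 0.0625) and for Cd4 0.65 (adjusted p = 0.553). The count of 2 fell to 0 without Con replicate 2 or 5 or ConSul replicate 6, was 5 without ConSul replicate 1, and was 1 without any one of 11 arrays (ConSul replicates 2, 4 and 5, DIO replicates 1, 3, 6 and 8 and DIOSul replicates 1, 3, 7 and 8). It was also 0 without the 7 arrays high in muscle or skin genes.

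CD8 was then set against CD4 within each tumor, as Cd8a minus Cd4 on the log2 scale. Its absolute value has no meaning across probes, but its change says whether the 2 signals moved unequally. An unequal change of signal need not be an equally unequal change of RNA, since probes differ in response. In the 8 E0771 DIOSul tumors it was −1.15, 0.10 and 2.65 (lowest, median and highest), against −3.65, −2.04 and −1.20 in the 8 DIO tumors. Every DIOSul tumor lay above every DIO tumor. The difference was 2.47 (exact two-sided permutation p = 0.000155, the smallest that 8 against 8 can give, adjusted p = 0.00187 over the 12 comparisons made). The Cd8a signal was therefore higher in DIOSul by more than the Cd4 signal was. The DIO values of Cd8a lay below the median of every array, while those of Cd4 ran from 6.11 to 8.21. With Cd8b1 in place of Cd8a the difference was 1.41 (exact permutation test, adjusted p = 0.0671). With the arrays high in muscle or skin genes left out, 5 DIOSul and 8 DIO tumors differed by 2.31 (exact permutation p = 0.000777, the smallest that 5 against 8 can give, adjusted p = 0.00932).

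In E0771 Con tumors the value was −2.30, −0.37 and 0.86, so that DIO minus Con came to −1.63 (exact permutation p = 0.0183, adjusted p = 0.110) and did not pass. Without Con replicate 6 it was −1.99 and passed (adjusted p = 0.0326). In metM-Wnt-lung it was −0.23, 1.92 and 2.98 in DIO, against 1.52, 2.90 and 4.58 in Con. The groups overlapped, with a difference of −1.34 (exact permutation p = 0.0542, adjusted p = 0.217). A fit with the replicate number as a block, although the numbers did not pair the tumors, gave −1.53 and passed (adjusted p = 0.0358, least-squares t-test). That fit held all 4 groups of the line, so the test changed along with the block. The Con set of metM-Wnt-lung is also the one with the wider spread of array values. In metM-Wnt-liver Cd8a minus Cd4 was 1.1, 2.51 and 3.69 in DIO, against 2.05, 3.55 and 4.16 in Con. These groups also overlapped, with a difference of −0.74 (adjusted p = 0.388, exact permutation test). None of the other 11 comparisons passed, with adjusted p between 0.110 and 0.924.

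**Figure D3:**
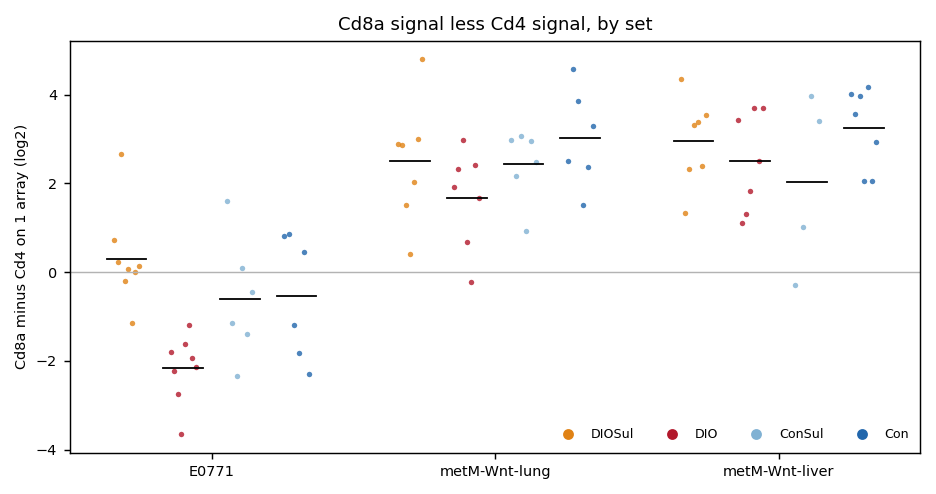
Cd8a minus Cd4 (log2) in every tumor by line, with groups in the order DIOSul, DIO, ConSul and Con and a bar at each mean. The 8 E0771 DIOSul tumors (−1.15 to 2.65) all lie above the 8 E0771 DIO tumors (−3.65 to −1.20).

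In metM-Wnt-lung tumors, all 10 genes had a lower mean in DIO than in Con, and 9 of 10 passed the test. The 3 CD3 chains, both CD8 chains, CD4, CD5, the zeta chain and Thy1 fell, from 1.86-fold (Cd247) to 20.4-fold (Thy1). Cd3d was 5.43, 6.38 and 8.16 in the 7 DIO tumors, against 8.71, 9.20 and 9.42 in the 6 Con tumors. No DIO tumor reached the Con range, and the difference was −2.48 (SE 0.342, adjusted p = 1.04e-05). Cd3e was 6.54, 9.08 and 10.94 in DIO, against 10.73, 11.59 and 12.16 in Con, with overlap by the highest DIO tumor. It differed by −2.88 (SE 0.547, adjusted p = 0.000379).

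Cd8a was 6.31, 9.19 and 11.70 in DIO, against 10.17, 11.99 and 12.10 in Con. The DIO tumors were spread over a range that took in part of the Con group, and the difference was −2.80 (SE 0.654, adjusted p = 0.00255). Cd4 was 5.02, 6.92 and 9.12 in DIO, against 7.52, 8.5 and 9.66 in Con, with overlap. It fell by 1.46 (SE 0.471, adjusted p = 0.0228). Thy1 was 7.47, 9.22 and 11.84 in DIO, against 12.52, 13.54 and 14.56 in Con, with no overlap, and differed by −4.35 (SE 0.518, adjusted p = 1.65e-06). The remaining 4 calls had overlapping groups. Cd8b1 was 6.84, 8.26 and 10.16 in DIO, against 9.86, 11.14 and 11.67 in Con (difference −2.75, adjusted p = 0.000148), and only the highest DIO tumor reached the Con range. In each of the other 3 genes, 5 of 7 DIO tumors lay below every Con tumor. Cd3g was 6.4, 7.93 and 10.49 in DIO, against 8.96, 10.77 and 11.18 in Con (−2.29, adjusted p = 0.00138). Cd5, an inhibitory receptor, was 4.2, 4.9 and 6.46 in DIO, against 5.68, 6.62 and 7.13 in Con (−1.32, adjusted p = 0.00531). Cd247, the zeta chain, was 6.33, 6.49 and 8.30 in DIO, against 7.27, 7.88 and 8.39 in Con (−0.89, adjusted p = 0.0441). Cd6 differed by −0.65 (adjusted p = 0.158).

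These 9 of 10 calls stand against 13.4% of all genes called lower, and 2 of 10 genes (Cd3d and Thy1) against 6.92% of all genes were fully apart. The median difference was −2.39 (all genes 0.0443). Other cell types moved in the same comparison. Adipocyte markers fell in 9 of 9 genes, with their mean at 4.22, 4.59 and 10.06 in DIO, against 8.86, 11.09 and 14.82 in Con. Fibroblast markers fell in 5 of 8 genes, with their mean at 10.6, 12.6 and 13.9 in DIO, against 13.9, 14.7 and 15.2 in Con, macrophage markers fell in 8 of 9 and lymph node stroma markers in 3 of 7. Natural killer markers fell in 4 of 8, conventional dendritic cell markers in 4 of 10 and plasmacytoid dendritic cell markers in 4 of 5, while 3 of 6 neutrophil markers were higher and 1 was lower. With an adipocyte and a muscle score in the fit, 0 of 10 genes and 379 of all genes were called, against 5340 of all genes without them. The differences of Cd3e, Cd3d, Cd3g, Cd8a and Cd8b1 were then −2.83, −1.83, −1.93, −2.98 and −3.1. Those of Cd247, Cd5 and Thy1 were −0.04, −0.41 and −1.33, and that of Cd4 was 0.25. With a fibroblast score, 1 of 10 (Thy1) and 842 of all genes were called, and without the 11 arrays high in muscle or skin genes 5 of 10 and 2334 of all genes. The Con set is also one of the 2 with the wider spread of array values; after quantile normalization 8 of 10 genes were called.

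Sulindac on the high-fat diet in metM-Wnt-lung gave 1 call. Cd6, which binds the adhesion molecule ALCAM, was 6.45, 7.0 and 8.43 in the 7 DIOSul tumors, against 4.88, 5.39 and 6.91 in the 7 DIO tumors. The groups overlapped at their edges and differed by 1.63 (SE 0.325, adjusted p = 0.0259), or 3.09-fold. Cd8a was 8.11, 10.99 and 12 in DIOSul, against 6.31, 9.19 and 11.70 in DIO. These overlapped over most of their range, with a difference of 1.76 (adjusted p = 0.223). Cd3g differed by 1.94 (adjusted p = 0.0768). All 10 differences were positive, between 0.77 and 1.94, with a median of 1.26 (all genes −0.03), and 1 of 10 passed, where 0.164% of all genes did. That count was 0 when any of 7 tumors was left out (replicates 1, 5, 6 and 7 of DIO and 2, 6 and 7 of DIOSul), was 2 without DIO replicate 4 or DIOSul replicate 4, and was 3 without DIO replicate 3. It was 0 without the 11 arrays high in muscle or skin genes, which included 5 of 7 DIOSul tumors and 1 of 7 DIO tumors.

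Between ConSul and Con tumors of metM-Wnt-lung, 2 of 10 genes were called, about the share among all genes, and they went in opposite directions. Thy1 was 10.33, 10.43 and 11.01 in the 6 ConSul tumors, against 12.52, 13.54 and 14.56 in the 6 Con tumors. No value was shared, and the difference was −2.98 (SE 0.537, adjusted p = 0.000507). Cd6 was 7.15, 7.64 and 7.96 in ConSul, against 5.19, 6.51 and 6.86 in Con, also without overlap, and was higher by 1.26 (SE 0.351, adjusted p = 0.0145). So 1 of 10 genes fell, where 9.01% of all genes did, and 1 of 10 was higher, where 8.40% did. The 2 genes fully apart stand against 7.66% of all genes. Adipocyte markers fell in 9 of 9 genes, fibroblast markers in 7 of 8, macrophage markers in 8 of 9, endothelial markers in 5 of 7 and plasmacytoid dendritic cell markers in 2 of 5. Other lists held calls in both directions. Of 10 conventional dendritic cell markers, 3 were higher and 1 lower. Of 7 cytotoxic genes usual in CD8 T cells, 2 were higher and 1 lower, and of 25 T cell receptor signaling genes, 5 were higher and 4 lower. The Con set here is again the one with the wider spread of array values, and the sulindac effect in DIO minus that in Con also rests on it. Without the arrays high in muscle or skin genes 0 of 10 genes were called, and with a fibroblast score 1 of 10. DIOSul and ConSul differed in 0 of 10 genes (−1.12 to −0.29, smallest adjusted p = 0.187 for Cd3d), against 0.226% of all genes. The sulindac effect in DIO minus that in Con passed for 1 of 10, Thy1 at 3.75 (SE 0.732, adjusted p = 0.00245), where 5.37% of all genes passed as higher. That count was 5 without DIO replicate 3, 2 without DIO replicate 4 or DIOSul replicate 1 or 4, and 0 without the arrays high in muscle or skin genes.

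In metM-Wnt-liver tumors neither the diet nor sulindac on the high-fat diet gave a call. Cd8a was 8.46, 10.35 and 11.37 in the 7 DIO tumors, against 9.07, 11.65 and 12.63 in the 7 Con tumors. Cd3e was 9.14, 10.06 and 11.89 in DIO, against 9.24, 10.59 and 11.50 in Con. For Cd3e all Con tumors lay within the DIO range. The Cd8a groups overlapped between 9.07 and 11.37, and the Con median of 11.65 lay above every DIO tumor. DIO minus Con lay between −0.91 and −0.11 over the 10 genes, with 0 of 10 called by limma (smallest adjusted p = 0.935), as were 0% of all genes, of which 1045 had an unadjusted p under 0.05. DIOSul minus DIO lay between 0.23 and 1.11, again with 0 of 10 (smallest adjusted p = 0.570, Cd3g) and 0% of all genes, of which 1470 had an unadjusted p under 0.05. All 10 differences were negative in the diet comparison and positive in the sulindac comparison, and both share the DIO tumors.

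The ConSul set of metM-Wnt-liver stood apart in Thy1. Thy1 was 12.22, 13.13, 12.69 and 12.40 in the 4 ConSul tumors, against 8.78, 10.31 and 10.97 in the 7 Con tumors. No tumors overlapped, and the difference was 2.43 (SE 0.484, adjusted p = 0.00237). Cd4 was 9.17, 10.29, 8.90 and 8.72 in ConSul, against 7.01, 7.63 and 8.66 in Con, also fully apart, but its difference of 1.41 had an adjusted p of 0.0656. So 1 of 10 genes passed as higher, where 5.76% of all genes did, and 2 of 10 were fully apart, against 6.73%. Adipocyte markers were higher in 9 of 9 genes (mean 9.66 to 12.3 in ConSul, against 3.91 to 10.1 in Con) and fibroblast markers in 4 of 8 (13.03 to 14.12 in ConSul, against 11.3 to 12.7 in Con). Another 1 of the fibroblast markers, Pdgfrb, was lower (−1.21). Macrophage markers were higher in 7 of 9. Against the same 4 tumors, DIOSul tumors had Thy1 at 9.08, 10.56 and 11.50, a difference of −2.25 (SE 0.484, adjusted p = 0.00346). This was the 1 gene of 10 called lower, where 6.95% of all genes were, and the 1 fully apart, against 9.03%. In that comparison adipocyte markers were lower in 9 of 9 genes, macrophage markers in 6 of 9 and fibroblast markers in 4 of 8, while 1 fibroblast marker was higher. Both counts were 0 with a fibroblast score in the fit. They were 2 without ConSul replicate 1 and 2 without DIOSul replicate 5, in that order of comparison. The sulindac effect in DIO minus that in Con passed for 0 of 10 (smallest adjusted p = 0.195, Thy1), against 2.22% of all genes. ConSul is the other set with the wider spread of array values.

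Whether the effects differed between lines was tested directly, in tests added after the data had been seen. The DIO minus Con differences of metM-Wnt-lung were below those of metM-Wnt-liver in 3 of 10 genes, where 6.40% of all genes passed in that direction. These were Thy1 by −3.61 (SE 0.692, adjusted p = 0.000327), Cd3e by −2.73 (SE 0.755, adjusted p = 0.0110) and Cd3d by −1.67 (SE 0.564, adjusted p = 0.0409). All 3 rest on the Con set of metM-Wnt-lung, which had the wider spread of array values. Differences of effects between lines were not tested under other settings. E0771 differed from metM-Wnt-lung in 0 of 10, against 6.72% of all genes, and from metM-Wnt-liver in 0 of 10, against 0.0615%. For DIOSul minus DIO, Cd3e was higher in E0771 than in metM-Wnt-liver by 2.89 (SE 0.716, adjusted p = 0.0359), 1 of 10 genes where 0.492% of all genes passed. E0771 against metM-Wnt-lung gave 0 of 10, against 0.497%, and metM-Wnt-lung against metM-Wnt-liver 0 of 10, against 0% of all genes by limma, of which 718 had an unadjusted p under 0.05. The diet and sulindac effects on Cd8a and Cd4 were therefore not shown to differ between any 2 lines.

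The members were not equally close to each other. Over the 79 tumors, with each line's mean subtracted, Cd8a and Cd8b1 followed each other (Pearson r = 0.94), and Cd8b1 (r = 0.912) and Cd8a (r = 0.905) followed the mean of the 3 CD3 chains. Cd4 followed the CD3 mean with r = 0.714, Cd5 with 0.748, Cd247 with 0.729, Cd6 with 0.654 and Thy1 with 0.701. These points share diet and sulindac groups and array normalization. With each set's mean subtracted instead, Cd8a kept r = 0.85, while Cd4 had 0.576 and Thy1 0.483. Thy1 lay closer to fibroblast markers. Its r with the mean of 8 fibroblast genes was 0.860, or 0.789 within sets, whereas that of the CD3 mean was 0.423, or 0.171 within sets. With the fibroblast score in the fit, Thy1 differed between DIO and Con by −1.94 in E0771 (adjusted p = 0.0464) and by −1.54 in metM-Wnt-lung (adjusted p = 0.0134).

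**Figure D4:**
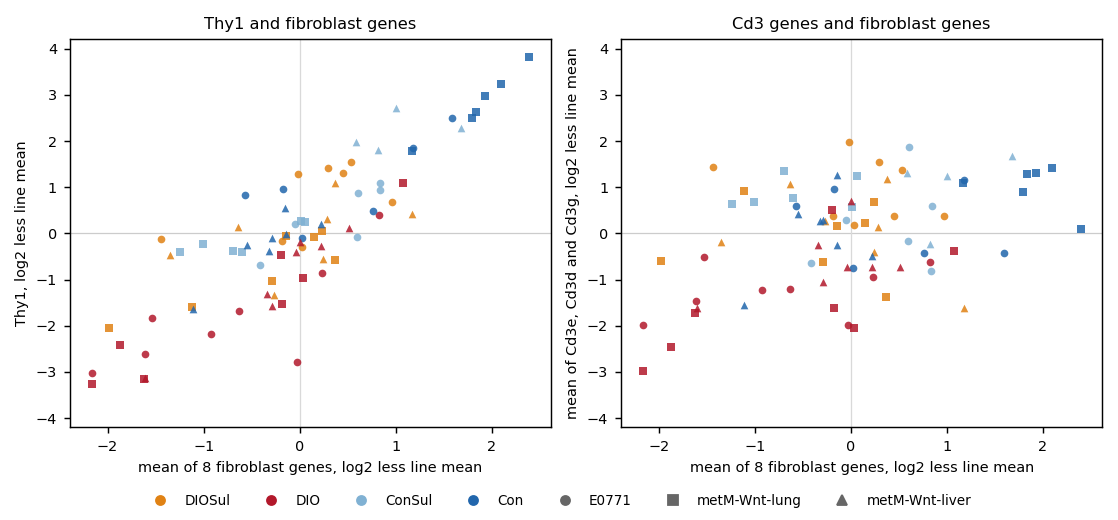
Mean of 8 fibroblast genes (horizontal axis, log2 less the line's mean) against Thy1 (1 panel) and the mean of Cd3e, Cd3d and Cd3g (the other panel) in the 79 tumors, log2 less the line's mean, with groups in colour. Thy1 tracks the fibroblast genes with r = 0.860, and the CD3 mean tracks the fibroblast genes with r = 0.423.

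The 10 genes most like the CD3 mean over the 79 line-centred tumors, among all genes outside the 10 members, were Nkg7 (r = 0.954), Il2rb (0.931), Pdcd1 (0.928), Itgal (0.889), Lag3 (0.886), Tox (0.884), H2-Ab1 (0.882), Prkch (0.881), AW112010 (0.877) and H2-Aa (0.877). Nkg7 encodes a protein of cytotoxic granules, Il2rb a chain of the receptors for interleukins that act on T and natural killer cells, and Pdcd1 and Lag3 encode inhibitory receptors that bind MHC class II (Lag3) or the PD-1 ligands (Pdcd1). Tox is a nuclear factor of T cell development and exhaustion. H2-Ab1 and H2-Aa form an MHC class II molecule of antigen-presenting cells. Of these 10 genes, 7 were also among the 10 most alike within sets. The tumors share the groups and the array normalization, so the values describe likeness only.

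Downstream of the receptor, 25 genes of T cell receptor signaling had a row. In E0771, 7 of 25 fell in DIO relative to Con, where 2.75% of all genes did, with a list median of −0.59 (all genes 0.0004). They included the costimulatory receptor Icos (−2.14), the phosphatase Ptprc, known as CD45 (−1.53), the Ras activator Rasgrp1 (−1.5) and the adhesion receptor Cd2 (−1.77). In DIOSul relative to DIO, 12 of 25 were higher and 0 lower, where 3.02% of all genes were higher (list median 0.96, all genes −0.0213), among them Icos (2.37), Rasgrp1 (2.14), Ptprc (2.03) and the kinase Prkcq (2.15), which acts at the immune synapse. In metM-Wnt-lung, 15 of 25 fell in DIO and 1 was higher, where 13.4% of all genes fell (list median −1.47, all genes 0.0443). The transcription factor Nfatc2 (−2.09), the adaptor Lcp2 (−1.91), Rasgrp1 (−2.38) and the kinase Txk (−2.65) were among those that fell. Between DIOSul and DIO, 2 of 25 were higher there, where 0.164% of all genes were, the phosphatase Ubash3a (1.28) and the transcription factor Nfatc1 (1.08).

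Genes that usually accompany each coreceptor were followed as 2 further lists. The shares of all genes in the same comparisons were 2.75% lower in E0771 DIO and 3.02% higher in E0771 DIOSul. Of 7 cytotoxic genes usual in CD8 T cells, 3 fell in E0771 DIO relative to Con, Klrk1 (an activating receptor, −2.09), Nkg7 (−1.81) and Gzmb (granzyme B, −1.52). In DIOSul relative to DIO, 4 were higher, Nkg7 (2.62), Gzmb (2.07), Klrk1 (2.04) and Ifng (interferon gamma, 1.53). Called natural killer markers, given below, moved in the same directions, and whole tumors do not show which cells carried these genes. Of 6 genes usual in CD4 T cells, the inhibitory receptor Ctla4 (−1.92) and the costimulatory receptor Tnfrsf4 (−1.54) fell in E0771 DIO relative to Con, and both were higher in DIOSul than in DIO (1.69 and 1.17). Among 13 T lineage factors, Ikzf1 (−1.30) and Satb1 (−0.87) fell in E0771 DIO, and Ikzf1 (1.65), Satb1 (1.21), Tox (1.65) and Il7r (1.61) were higher in DIOSul than in DIO. In metM-Wnt-lung, 5 of 6 CD4 partner genes and 3 of 7 CD8 partner genes fell in DIO relative to Con, where 13.4% of all genes did. Gzmb was higher by 1.60 in DIOSul than in DIO, where 0.164% of all genes were.

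Markers of other cells moved with these changes in E0771. B cell markers did not, with 0 of 11 called in either comparison and a list mean of 4.25 to 4.81 in DIO tumors, against 4.31 to 4.78 in Con tumors. These levels lay below the median of every array. Macrophage markers fell in 5 of 9 genes in DIO relative to Con and were higher in 7 of 9 in DIOSul relative to DIO. Natural killer markers, some of which T cells share, fell in 1 of 8 and were higher in 3 of 8. Conventional dendritic cell markers fell in 3 of 10 and were higher in 2 of 10, and plasmacytoid dendritic cell markers fell in 1 of 5 and were higher in 0 of 5. Fibroblast markers fell in 3 of 8 in DIO relative to Con (Postn −2.46, Col1a1 −2.70 and Col1a2 −2.28), and in DIOSul relative to DIO 1 was higher (Postn, 2.05) and 1 lower (Col3a1, −0.81). Neutrophil markers were higher in 2 of 6 in DIO relative to Con, S100a8 by 3.47 and Retnlg by 3.54, and 2 of 6 were lower in DIOSul relative to DIO. Of 3 red cell markers, Alas2 was higher by 2.88 in DIO relative to Con and differed by −2.94 in DIOSul relative to DIO. The part of these cells in the changes of the T cell genes was not tested.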

How the data were processed

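RNA from flash-frozen tumors was hybridised to Clariom S Mouse HT arrays. The deposited table holds log2 values that the authors made with signal space transformation and robust multi-array averaging (SST-RMA) for 22206 transcript clusters and 79 arrays, and such values come from arrays without a read depth, so that the number of arrays limits the precision. Clusters with 1 gene symbol in the platform table were kept (19572), and the cluster with the highest mean was used for the 55 genes that had several, which left 19505 genes. The members and gene lists were chosen with earlier results of these data known. For each line, 1 limma model (limma 3.58.1, R 4.3.3) held the 4 groups, and a model of all 12 sets compared the lines. P-values were adjusted by Benjamini-Hochberg over all 19505 genes, a call needed an adjusted p under 0.05, and tests were two-sided. The fit was tested on simulated data. Cd8a minus Cd4 was compared by exact permutation of tumors over 12 comparisons. Its replicate-block alternative was instead a least-squares fit of the 4 groups of a line, with t-tests. All 10 members were named, with up to 4 called genes of smallest adjusted p from each list described and the 10 genes of highest likeness. Tumor mass was not in any fit. No 2 arrays held identical values. Alternatives were quantile normalization, a filter on signal, other sets of samples in the fit, array weights, trended variances, a replicate block, marker scores as covariates and single arrays left out. A fibroblast score and the omission of 24 arrays with a mean above 9 for muscle or 5.5 for skin genes were added after the data had been seen.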

Additional observations from a re-analysis of the deposited data

Results flagged for a closer look

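In 7 of 132 groups of tumors and genes 1 tumor lay far from the others by Dixon's test, and chance flags about 1 in 20 groups. Cd3e in metM-Wnt-lung ConSul replicate 4 was lowest at 9.87, where the nearest tumor had 11.16. Cd3d in metM-Wnt-liver DIO replicate 4 was highest at 8.38 (nearest 7.22). Cd8a in E0771 DIO replicate 5 was highest at 6.17 (nearest 5.01), and Cd8a in metM-Wnt-lung Con replicate 4 was lowest at 10.17 (nearest 11.64). Cd8b1 in E0771 ConSul replicate 1 was highest at 9.72 (nearest 7.97), Cd6 in metM-Wnt-lung Con replicate 2 was lowest at 5.19 (nearest 6.29), and Thy1 in metM-Wnt-liver Con replicate 6 was lowest at 8.78 (nearest 10.03).

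Effects that differed between groups by a test of the difference were the following. The sulindac effect in DIO minus that in Con was 3.22 for Cd3e and 3.23 for Thy1 in E0771, and 3.75 for Thy1 in metM-Wnt-lung. The DIO minus Con difference in metM-Wnt-lung less that in metM-Wnt-liver was −2.73 for Cd3e, −1.67 for Cd3d and −3.61 for Thy1. The metM-Wnt-lung values named here rest on its Con set, which had the wider spread of array values. The DIOSul minus DIO difference of Cd3e in E0771 less that in metM-Wnt-liver was 2.89.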

How the results depend on the processing

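Counts are of the 10 genes called, with the number called among all genes in parentheses where given. In E0771, DIO against Con gave 5 (1008 of all genes), and 8 with array weights (3781), 3 with a replicate block (583), 2 with adipocyte and muscle scores (276), 1 with lymph node and B cell scores (518), 1 with a fibroblast score (11) and 1 to 6 with single arrays left out. The unequal sulindac effect gave 2, and 6 with array weights, 1 with a replicate block, with quantile normalization, with trended variances or with a fibroblast score, 0 with lymph node and B cell scores or without the muscle-rich or skin-rich arrays, and 0 to 5 with single arrays left out. DIOSul against DIO gave 7, and 6 to 8 with single arrays left out. Cd3e, Cd3g, Cd8a, Cd8b1 and Thy1 were called there under all 12 other settings.

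In metM-Wnt-lung, DIO against Con gave 9 (5340 of all genes), and 5 without the muscle-rich or skin-rich arrays (2334), 3 with lymph node and B cell scores (1066), 1 with a fibroblast score (842), 0 with adipocyte and muscle scores (379) and 7 to 9 with single arrays left out. Cd4 changed sign there, to 0.25 with adipocyte and muscle scores and 0.21 with a fibroblast score. DIOSul against DIO gave 1, and 2 with all 12 sets in the fit or with array weights, 0 with only the 2 groups or without the muscle-rich or skin-rich arrays, and 0 to 3 with single arrays left out. ConSul against Con gave 2, and 1 with a fibroblast score, 0 with adipocyte and muscle scores or without the muscle-rich or skin-rich arrays. It also gave 1 with genes above the median signal, a filter that left Cd6 out of the fit. The unequal sulindac effect gave 1, and 2 with array weights, 0 with either tissue score or without the muscle-rich or skin-rich arrays, and 1 to 5 with single arrays left out.

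In metM-Wnt-liver, ConSul against Con gave 1, and 2 with only the 2 groups or all 12 sets in the fit. DIOSul against ConSul gave 1. Both gave 0 with lymph node and B cell, adipocyte and muscle, or fibroblast scores, and 1 to 2 with single arrays left out.

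Cd8a minus Cd4 in E0771 DIOSul against DIO was 2.47, 1.41 with Cd8b1 in place of Cd8a and 2.13 to 2.68 with single arrays left out. In E0771 DIO against Con it was −1.63 and −1.99 to −1.35 with single arrays left out. In metM-Wnt-lung DIO against Con it was −1.34 and did not pass by permutation. A least-squares fit of the 4 groups with a replicate block gave −1.53 and passed (adjusted p = 0.0358, t-test). The replicate numbers did not pair the tumors, since the mean correlation of same-numbered tumors was −0.0116 in metM-Wnt-liver, 0.0430 in metM-Wnt-lung and −0.00692 in E0771. The cause of these changes was not tested. Over the single-gene values followed, which were each called gene within a line and all 10 genes between lines, leaving out 1 array (within lines only) kept direction and side of the threshold in 374 and lost the call in 67. The other settings kept the side of the threshold in 458 and lost the call in 80. They added a call in 3 (Thy1 between metM-Wnt-lung and E0771) and changed the sign of a called difference in 2. Some of the 458 changed sign without a call in either fit. Cd8a between metM-Wnt-lung and metM-Wnt-liver, for example, ran from −0.86 to 0.26. The deposited values give no signal over background, so no detection limit can be set for the 10 genes.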
